A study of Homo sapiens with 24 samples.

Results

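The 7 genes described here encode the FOS family (FOS, FOSB, FOSL1 and FOSL2) and the JUN family (JUN, JUNB and JUND) of the transcription factor AP-1. They were taken by gene symbol from a table of 23368 genes, and all 7 were among the 13947 genes that passed the filter on low counts. RNA sequencing had been done on 24 libraries of AGS, an established human gastric adenocarcinoma line labelled wild type, in 6 groups of 4 biological replicates, 24 h after treatment. The groups were control cells with no inhibitor, cells given PI103 (an inhibitor of PI3 kinase and mTOR) at 0.7 µM, cells given PD0325901 (a MEK inhibitor) at 0.035 µM, cells given (5Z)-7-oxozeaenol (a TAK1 inhibitor, here oxozeaenol) at 0.5 µM, and cells given both PI103 and another agent (PI103+oxozeaenol, PI103+PD0325901). In both combinations each inhibitor was at 50% of its single dose. All cells grew in medium with fetal calf serum, and the labels do not state whether controls received vehicle. Groups follow the sample titles, since in later replicates the treatment label counts the digits of the compound names upward. The design compares each treatment with control and the treatments with one another, and only RNA was measured, not AP-1 protein or its binding.

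AP-1 is a dimer of basic leucine zipper (bZIP) proteins. FOS proteins do not form stable dimers with each other and pair with a JUN protein, whereas JUN proteins can also pair among themselves. The dimers bind the sequence called TRE and the related CRE in promoters and enhancers. FOS, FOSB, JUN and JUNB are immediate-early genes, which serum and growth factors switch on through ERK, JNK and p38 kinases and the factors SRF, ELK1, ATF and CREB. FOSL1 is a known target of sustained ERK signalling, and in epithelial tumours AP-1 is linked to invasion, growth and secretion of growth factors.

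Library totals ran from 38057638 to 84226380 counts in genes, and the lowest was oxozeaenol replicate 3. Levels are CPM of TMM-scaled libraries, always from replicate 1 to replicate 4, and the replicate number is the batch number of the labels. Against the tissue label, the summed level of 7 epithelial markers was 5057 to 7934 CPM, and those of 5 leukocyte and 4 endothelial markers were at most 0.235 and 0.452 CPM. Among the epithelial markers KRT8 held 2115 to 3587 CPM, but KRT7 only 1.98 to 6.71 CPM. The 5 fibroblast markers summed to 14.0 to 17.1 CPM in control, 32.2 to 34.2 with PI103 and 8.14 to 9.93 with oxozeaenol. COL1A1, at 7.93 to 34.2 CPM, made up most of that sum, COL1A2 and DCN were at most 0.0176 CPM, and the part of these genes in any result was not tested. In bulk RNA, fewer cells of a kind and less RNA per cell cannot be told apart.

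The members lie on 5 chromosomes, and JUN, JUNB and JUND have 1 exon each while the FOS family genes have 4. In GENCODE release 29 on GRCh38, FOS (ENSG00000170345.9) spans chr14:75278774-75282230, FOSB (ENSG00000125740.13) chr19:45467995-45475179 and FOSL2 (ENSG00000075426.11) chr2:28392448-28417312, all on the plus strand. FOSL1 (ENSG00000175592.8) spans chr11:65892049-65900573 and JUN (ENSG00000177606.6) chr1:58780788-58784327 on the minus strand. JUNB (ENSG00000171223.5) spans chr19:12791496-12793315 on the plus strand and JUND (ENSG00000130522.5) chr19:18279760-18281622 on the minus strand. Of JUNB's exon length, 14.2% lies opposite exons of HOOK2, and whether counting used strand is not stated, so JUNB counts are uncertain to that extent. HOOK2 held 13.3 to 25.4 CPM and rose in all 5 treatments, by 0.42 to 0.62 on the log2 scale, so its direction was opposite to that of JUNB.

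Several AP-1 genes carry AP-1 or CRE sites in their own promoters, and the sites of 5 members are shown because they sit close to the start of genes that differ in how they responded. RefSeq promoters of GRCh38.p14 were matched for 6 of 7 members, from 250 bases before to 50 after the start. Capitals mark the match, a CRE core (TGACGT, or ACGTCA where it lies on the opposite strand) in FOS, FOSB, FOSL2 and JUND, and in JUN the site TGACATCA. Each is 30 bases, 5′ to 3′ on the gene's strand.
FOS, chr14:75278752-75278781, plus strand: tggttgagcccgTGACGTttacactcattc
FOSB, chr19:45467924-45467953, plus strand: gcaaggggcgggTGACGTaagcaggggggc
FOSL2, chr2:28392780-28392809, plus strand: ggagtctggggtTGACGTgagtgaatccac
JUN, chr1:58784096-58784125, minus strand: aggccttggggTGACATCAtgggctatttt
JUND, chr19:18281692-18281721, minus strand: tgcaaatgagcgACGTCAcccgcacccaat

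Counted from the start of the gene in that table, the matches began at -64 in FOS, -60 in FOSB, -66 in FOSL2, -67 in JUN and -87 in JUND. For FOS, FOSL2 and JUN this RefSeq start is not the GENCODE start given above. The printed FOSL2 and JUN sites thus lie inside the GENCODE spans, and the FOS site crosses the GENCODE start. Over all 35116 promoters of 300 bases, searched on both strands, TGACGT was in 7.98% and TGACATCA in 2.61%. The full CRE, TGACGTCA, which contains TGACGT, was in 1.85% of promoters and, among the members, in JUND, at -200. The TRE, TGACTCA, was in 4.95% and, among the members, in FOSL2, at 5. No member's window matched the CArG box of SRF, which 1.29% of promoters held, and the JUNB window matched none of the motifs searched. Sites further than 250 bases before the start were not searched, so a missing match does not mean that the gene lacks such a site. FOS, FOSB and FOSL2, whose levels fell, and JUND, whose level was not called changed, thus share the CRE core, and a match in these windows describes letters only.

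In control cells FOS, FOSB, FOSL1, FOSL2, JUN and JUNB were at their highest, and all 6 fell in each of the 5 treatments. JUND did not pass the test in any of them. FOSL1 fell the most with PD0325901, from 55.4 ± 10.5 to 3.24 ± 0.867 CPM (SD, n = 4), and FOSB fell the most with oxozeaenol, from 2.75 ± 1.05 to 0.169 ± 0.0868 CPM (SD, n = 4). By edgeR's quasi-likelihood test at an adjusted p under 0.05, 6 of 7 members were lower and 0 higher in each treatment. Of all genes tested, 25.2% were lower and 26.2% higher with PI103, 29.9% lower and 28.7% higher with PD0325901, and 26.1% lower and 25.7% higher with oxozeaenol. With PI103+oxozeaenol 27.9% were lower and 27.7% higher, and with PI103+PD0325901 32.6% were lower and 32.2% higher. The 5 comparisons share the 4 control libraries, so their directions are not independent. Control replicate 4 held the highest control value of all 7 genes, and the calls it decides are given with each gene.

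**Figure D1:**
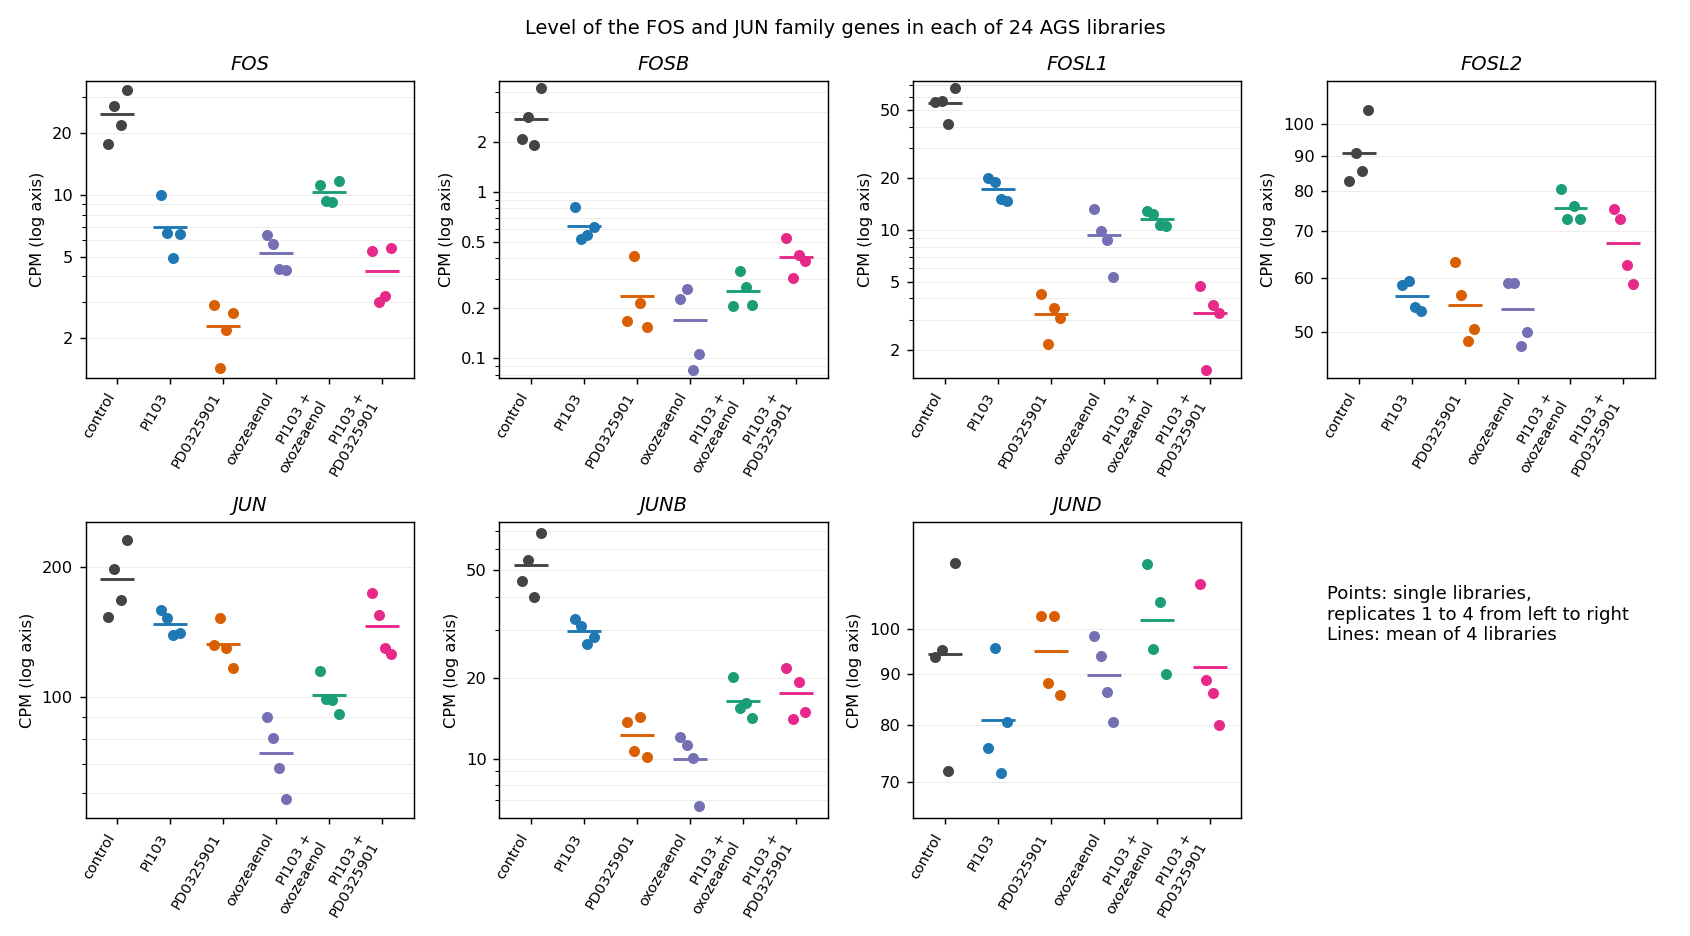
CPM of each gene (log axis, 1 panel per gene, with its own scale) in the 24 libraries, by treatment, with points for single libraries and lines for the mean of 4. For FOS, FOSB, FOSL1, FOSL2 and JUNB every treated library lies below every control library, whereas JUND overlaps control in all 5 treatments.

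FOS, the first known partner of JUN, held 17.8, 27.0, 21.9 and 32.6 CPM in the control libraries. PD0325901 left the lowest levels, 2.89, 1.43, 2.19 and 2.67 CPM. The highest treated levels came with PI103+oxozeaenol, at 11.1, 9.33, 9.27 and 11.7 CPM. No treated library reached the lowest control library. With PI103 the values were 9.95, 6.54, 4.90 and 6.43 CPM, and with oxozeaenol they were 6.40, 5.75, 4.34 and 4.30 CPM. PI103+PD0325901 gave 5.32, 3.01, 3.23 and 5.50 CPM. These last 3 groups overlapped one another, and PI103+PD0325901 lay above PD0325901 alone in every library.

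Against control, FOS fell by 3.44 on the log2 scale (SE 0.254, adjusted p 7.09e-11, edgeR's quasi-likelihood test) with PD0325901, a level 10.8-fold lower. It fell by 2.54 (SE 0.241, adjusted p 2.57e-09) with PI103+PD0325901, by 2.25 (SE 0.238, adjusted p 4.18e-08) with oxozeaenol and by 1.83 (SE 0.233, adjusted p 5.95e-07) with PI103. The smallest change was -1.26 (SE 0.228, adjusted p 5.52e-05) with PI103+oxozeaenol. In the order of levels, control, PI103+oxozeaenol, PI103, oxozeaenol, PI103+PD0325901 and PD0325901, the first step and the last passed the test (adjusted p 5.52e-05 and 0.0153). The last was lost with only the groups compared (adjusted p 0.0543) and in 4 of 8 fits that left out 1 library. The 3 steps between were not called (adjusted p 0.0868, 0.16 and 0.333). The first of these 3, from PI103+oxozeaenol to PI103, passed with the batch number as a block (adjusted p 0.0292), with DESeq2 (0.0485) and with only the groups compared (0.0298).

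FOSB, which is induced with FOS by serum, was the scarcest member. Control libraries held 2.07, 2.81, 1.92 and 4.21 CPM, and the level with PI103 was 0.815, 0.520, 0.549 and 0.614 CPM. In the other treatments single libraries lay between 0.0851 CPM, in oxozeaenol replicate 3, and 0.526 CPM, in replicate 1 of PI103+PD0325901. The oxozeaenol values rest on 3 to 19 counts a library, so their precision is low. The log2 fold change of FOSB was -3.93 (SE 0.346, adjusted p 1.05e-09) with oxozeaenol, -3.53 (SE 0.330) with PD0325901, -3.44 (SE 0.328) with PI103+oxozeaenol, -2.74 (SE 0.309) with PI103+PD0325901 and -2.13 (SE 0.297, adjusted p 1.41e-06) with PI103. After control, no 2 neighbours in the order PI103, PI103+PD0325901, PI103+oxozeaenol, PD0325901 and oxozeaenol were separated by edgeR's quasi-likelihood test (adjusted p 0.135 to 0.875). Some groups further apart were. PI103 differed from PI103+oxozeaenol (adjusted p 0.00779), PD0325901 (0.00167) and oxozeaenol (0.000268), and PI103+PD0325901 from oxozeaenol (0.0113).

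FOSL1, also called FRA1, the FOS protein most tied to ERK activity and tumour cell invasion, held 55.8, 56.9, 41.6 and 67.2 CPM in control. With PD0325901 it was at 4.24, 2.16, 3.50 and 3.06 CPM, and with PI103+PD0325901 at 4.71, 1.53, 3.66 and 3.29 CPM. Both groups that received the MEK inhibitor overlapped and lay below all other libraries. PI103 left 20.2, 19.1, 15.1 and 14.7 CPM, oxozeaenol 13.3, 9.87, 8.71 and 5.31 CPM, and both together 12.8, 12.4, 10.8 and 10.6 CPM. The groups with oxozeaenol overlapped each other and lay below the PI103 group.

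With PD0325901 FOSL1 fell by 4.10 (SE 0.276, adjusted p 1.83e-11, edgeR's quasi-likelihood test), and with PI103+PD0325901 by 4.06 (SE 0.275, adjusted p 1.14e-11), so that its level with PD0325901 was 17.1-fold lower than in control. It fell by 2.57 (SE 0.254, adjusted p 1.56e-08) with oxozeaenol, by 2.25 (SE 0.250, adjusted p 6.69e-08) with PI103+oxozeaenol and by 1.68 (SE 0.244, adjusted p 4.19e-06) with PI103. The order of levels had 2 steps that passed, from control to PI103 and from oxozeaenol to PI103+PD0325901 (adjusted p 9.02e-05). PI103 and PI103+oxozeaenol (adjusted p 0.109), the latter and oxozeaenol (0.405), and the MEK inhibitor groups (0.934) were not separated by the test.

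FOSL2, or FRA2, moved least among the FOS family genes. Controls held 82.7, 90.8, 85.6 and 105 CPM, and replicate 4 was again the highest. With PI103 the level was 58.5, 59.2, 54.4 and 53.7 CPM, with PD0325901 63.2, 56.6, 48.5 and 50.6 CPM, and with oxozeaenol 59.0, 59.0, 47.8 and 50.1 CPM. The single agents overlapped one another and lay below control throughout. Mean levels were higher in both combinations. PI103+oxozeaenol gave 80.6, 73.0, 76.1 and 73.0 CPM, above every single-agent library. PI103+PD0325901 gave 75.4, 73.0, 62.7 and 58.6 CPM and overlapped the single agents.

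Single agents lowered FOSL2 by similar amounts, -0.69 (SE 0.0983, adjusted p 2.04e-06) with PI103, -0.73 (SE 0.0984, adjusted p 5.34e-07) with PD0325901 and -0.75 (SE 0.0985, adjusted p 5.85e-07) with oxozeaenol. It fell by 0.43 (SE 0.0980, adjusted p 0.000403) with PI103+PD0325901 and by 0.27 (SE 0.0978, adjusted p 0.0231) with PI103+oxozeaenol. The last call was lost without control replicate 4 (-0.19, adjusted p 0.114), without replicate 2 (-0.25, 0.0552) or replicate 4 (-0.25, 0.0579) of the combination, and with upper-quartile scaling (-0.19, 0.102). In the order of levels the steps from control to PI103+oxozeaenol and from PI103+PD0325901 to PI103 (adjusted p 0.0404) passed, and the others did not (adjusted p 0.208, 0.737 and 0.901). The step from PI103+PD0325901 to PI103 was lost without the low-count filter (adjusted p 0.0528) and in 6 of 8 fits that left out 1 library.

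JUN, the main partner of FOS proteins, held 153, 198, 167 and 231 CPM in control. Oxozeaenol left the lowest levels, 90.1, 80.2, 68.4 and 58.2 CPM, and PI103+oxozeaenol gave 115, 99.1, 98.4 and 91.6 CPM. Every library with oxozeaenol was below every library without it. With PI103 the level was 159, 153, 139 and 141 CPM, with PD0325901 132, 153, 130.1 and 117 CPM, and with PI103+PD0325901 174, 155, 130.2 and 126 CPM. In batch 1 the PI103 library and that of PI103+PD0325901 lay above their control, unlike in the other 3 batches.

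JUN fell by 1.34 (SE 0.133, adjusted p 8.39e-09) with oxozeaenol, 2.52-fold, and by 0.89 (SE 0.132, adjusted p 2.94e-06) with PI103+oxozeaenol. It fell by 0.50 (SE 0.131, adjusted p 0.00207) with PD0325901. Smaller changes were called with PI103+PD0325901 (-0.36, SE 0.131, adjusted p 0.0195) and with PI103 (-0.34, SE 0.131, adjusted p 0.0314). The PI103 call was lost without control replicate 2 (-0.32, adjusted p 0.0728), control replicate 4 (-0.23, 0.167), PI103 replicate 3 (-0.31, 0.0773) or PI103 replicate 4 (-0.32, 0.0729), and with upper-quartile scaling (-0.27, 0.0904). The call with PI103+PD0325901 was lost without control replicate 4 (-0.24, 0.115) or replicate 3 (-0.30, 0.065) or 4 (-0.29, 0.0721) of the combination, and with upper-quartile scaling (-0.21, 0.154). In the order of levels, PI103, PI103+PD0325901 and PD0325901 were not separated (adjusted p 0.941 and 0.485). PD0325901, PI103+oxozeaenol and oxozeaenol were (adjusted p 0.0204 and 0.0226). The first of these was lost without PD0325901 replicate 2 (adjusted p 0.0688) or replicate 4 of PI103+oxozeaenol (0.0658), with differences of -0.34 and -0.35. The other step was lost without replicate 1 of PI103+oxozeaenol (adjusted p 0.118) or oxozeaenol replicate 3 (0.0756) or 4 (0.0814).

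JUNB, a weaker activator that can hold JUN back in dimers, held 45.7, 54.6, 39.8 and 68.9 CPM in control. PI103 left 33, 31, 26.8 and 28.4 CPM. Oxozeaenol left 12.0, 11.2, 10.1 and 6.67 CPM, and PD0325901 13.7, 10.7, 14.3 and 10.1 CPM. The PI103 libraries lay between control and all other treated libraries. PI103+oxozeaenol gave 20.0, 15.4, 16.2 and 14.2 CPM, and PI103+PD0325901 gave 21.7, 14.1, 19.2 and 14.9 CPM, so that the combinations overlapped.

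JUNB fell by 2.38 (SE 0.187, adjusted p 3.33e-10) with oxozeaenol, 5.22-fold, and by 2.10 (SE 0.183, adjusted p 1e-09) with PD0325901. It fell by 1.67 (SE 0.180) with PI103+oxozeaenol, by 1.58 (SE 0.180) with PI103+PD0325901, and by 0.81 (SE 0.176, adjusted p 0.000467) with PI103. In the order of levels the steps from control to PI103 and from PI103 to PI103+PD0325901 (adjusted p 0.00145) passed. The combinations were not separated (0.748), nor were PD0325901 and oxozeaenol (0.249). The step from PI103+oxozeaenol to PD0325901 had an adjusted p of 0.062, of 0.0474 with the batch number as a block, of 0.0435 with DESeq2, of 0.0267 with only the groups compared and of 0.0435 without PD0325901 replicate 3.

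JUND, the JUN family gene that is expressed steadily and little induced by serum, held 93.6, 95.2, 71.9 and 116 CPM in control. All treated libraries lay between 71.6 and 116 CPM, within or at the edge of that range. Its log2 fold changes were -0.22 with PI103 (adjusted p 0.141, 95% interval -0.48 to 0.03), 0.01 with PD0325901 (0.949, -0.25 to 0.27) and -0.07 with oxozeaenol (0.655, -0.33 to 0.18). PI103+oxozeaenol gave 0.11 (0.457, -0.14 to 0.37) and PI103+PD0325901 -0.04 (0.772, -0.30 to 0.21). These intervals exclude a change as large as those of FOS, FOSB, FOSL1 or JUNB, but not a smaller one. Without control replicate 3, the lowest control, JUND was called lower with PI103 (-0.34, adjusted p 0.0256). No neighbours in the order of its levels, from PI103+oxozeaenol at the top to PI103 at the bottom, were separated (adjusted p 0.342 to 0.949).

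**Figure D2:**
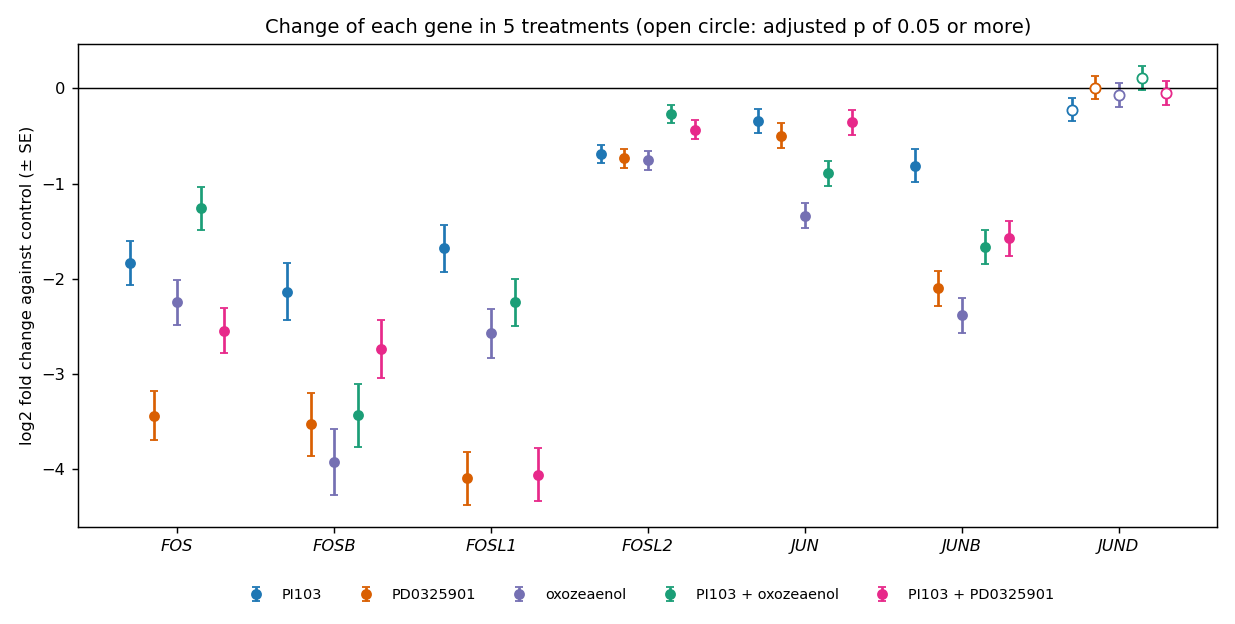
Log2 fold change of each gene against control (points, with SE) in 5 treatments, from edgeR. Filled points, all below 0, passed an adjusted p of 0.05, and the only open points are those of JUND, between -0.22 and 0.11.

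Levels of different genes were compared per kilobase of exon length. In control JUN held 52.9 ± 9.82 and JUND 50.6 ± 9.78 CPM per kilobase (SD, n = 4). FOSL1 held 29.3 ± 5.58, JUNB 28.7 ± 6.95, FOSL2 12.7 ± 1.38, FOS 7.67 ± 1.98 and FOSB 0.496 ± 0.189 CPM per kilobase. FOS family genes made up 27.6 ± 0.601% of the summed level of all 7 in control. PI103 gave 16.0%, PD0325901 9.61%, oxozeaenol 15.8%, PI103+oxozeaenol 17.9% and PI103+PD0325901 11.2%. Every treated library was below the controls in this share. Per kilobase of coding length in place of exon length, the shares in the same order were 36.2%, 25.1%, 20.8%, 29.5%, 32% and 23.5%, lower than control in each treatment as well. In control JUN held 189 and JUND 90.6 CPM per kilobase of coding length, so their near equality depends on the length used.

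As the other genes fell, JUND took a larger share of the summed level per kilobase, from 27.7 ± 1.87% in control to 35.9% with PI103, 48.4% with PD0325901 and 54.6% with oxozeaenol. It was 48.7% with PI103+oxozeaenol and 43.6% with PI103+PD0325901. JUN's share was 29.1 ± 2.33% in control, and higher with PI103 (34.6%), PD0325901 (35.7%) and PI103+PD0325901 (36.7%). It was lower with oxozeaenol (23.5%) and PI103+oxozeaenol (25.4%). Within the FOS family, FOSL1 was the leading gene in control at 58.3 ± 3.80%, ahead of FOSL2 at 25.6 ± 2.37%. With PD0325901 the positions were exchanged, FOSL2 at 75.7 ± 4.67% and FOSL1 at 16.9 ± 3.47%. FOSL2 also led with oxozeaenol (54.3% against 34.1%), PI103+oxozeaenol (52.9% against 30.8%) and PI103+PD0325901 (75.2% against 13.8%). With PI103 FOSL1 stayed ahead, at 47.3% against 41.1%. Per coding length FOSL2 led in control too, at 50.4% against 36.6% for FOSL1, and with PD0325901 at 90.0% against 6.41%. Which of the pair leads in control thus depends on the length used, and the shift toward FOSL2 appears with both. Per coding length JUND's share was 17.6% in control and 22.8%, 30.6%, 35.8%, 30.9% and 26.7% in the treatments, in the order above. JUN's share by that length was 36.6% in control, 43.7% with PI103, 44.7% with PD0325901 and 44.7% with PI103+PD0325901. It was 30.7% with oxozeaenol and 32.1% with PI103+oxozeaenol. The rise of JUND's share thus appears with both lengths. With oxozeaenol the mean share of JUND exceeds that of JUN by both lengths. In the other treatments it does so per exon length only, and with PI103 by little (35.9% against 34.6%).

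**Figure D3:**
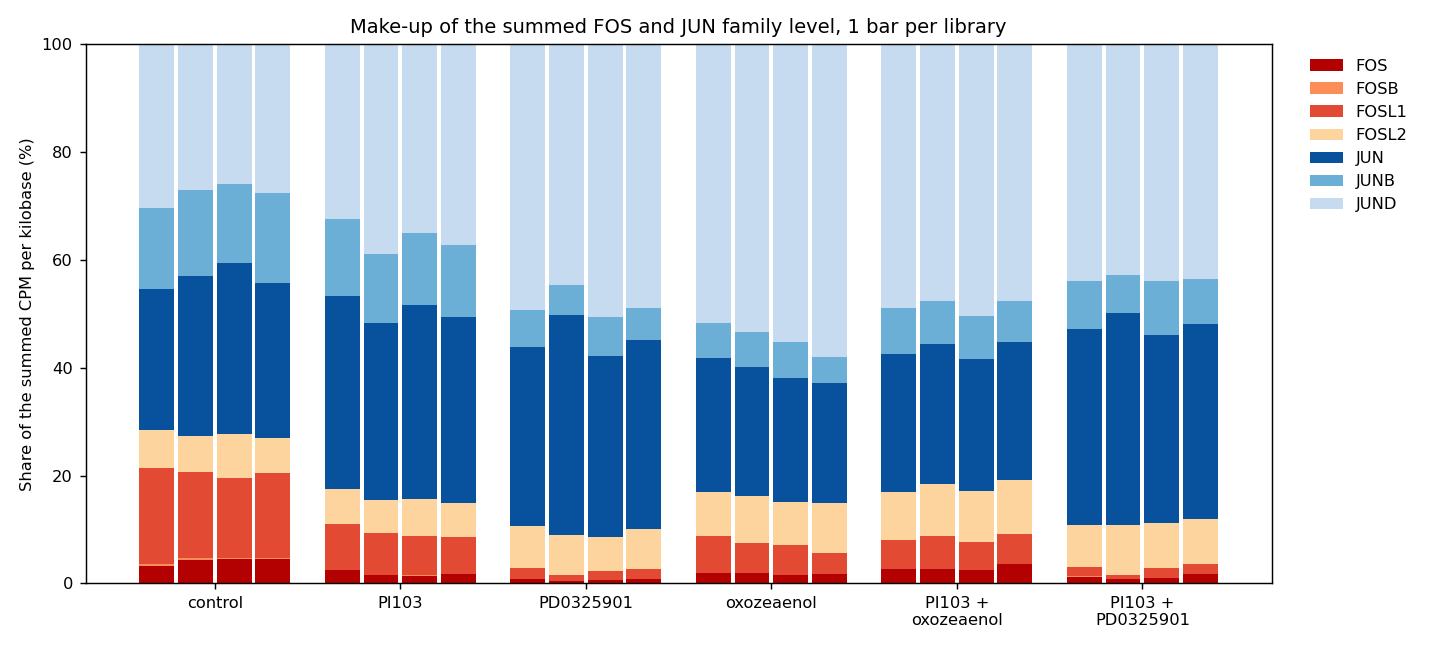
Share (%) of each gene in the summed CPM per kilobase of exon length of the 7 genes, 1 bar per library, with the FOS family in reds and the JUN family in blues. The red part takes 27.6% of the bar on average in control and 9.61% with PD0325901, and JUND, the palest blue, takes 27.7% and 48.4%.

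Single agents, given at full dose, were compared with each other. PD0325901 differed from PI103 in 4 of 7 members, all lower with PD0325901, where 44.5% of genes tested differed. They were FOSL1 (-2.42, SE 0.264, adjusted p 9.35e-08), FOS (-1.60, SE 0.247, adjusted p 1.21e-05), FOSB (-1.39, SE 0.342, adjusted p 0.00167) and JUNB (-1.29, SE 0.180, adjusted p 3.24e-06). Oxozeaenol also differed from PI103 in 4 members, against 43.1% of all genes, and again all were lower: FOSB (-1.79), JUNB (-1.57), JUN (-0.99) and FOSL1 (-0.89, adjusted p 0.00537). FOS was not called in that comparison (-0.41, adjusted p 0.16, 95% interval -0.90 to 0.07).

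Oxozeaenol and PD0325901 differed in 3 members, against 28.5% of all genes, and in different directions. FOS (1.19, SE 0.249, adjusted p 0.00119) and FOSL1 (1.52, SE 0.263, adjusted p 0.00019) were higher with oxozeaenol, and JUN (-0.84, SE 0.132, adjusted p 5.23e-05) was lower. FOSB (-0.40, 95% interval -1.22 to 0.41), JUNB (-0.28, -0.66 to 0.09) and FOSL2 (-0.02, -0.22 to 0.18) were not called. The MEK inhibitor thus gave the lowest FOS and FOSL1 levels of the single agents, and the TAK1 inhibitor the lowest JUN level.

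The combinations held each agent at a lower dose than the single treatments, so the following are comparisons of treatments as given. PI103+oxozeaenol differed from PI103 in 4 members, against 18.3% of all genes. FOSB (-1.30, adjusted p 0.00779), JUNB (-0.86, adjusted p 0.00125) and JUN (-0.55, adjusted p 0.00383) were lower, and FOSL2 was higher (0.42, adjusted p 0.00301). FOS (0.57, adjusted p 0.0868) and JUND (0.33, adjusted p 0.0622) were not called, but passed with the batch number as a block (0.59, adjusted p 0.0292, and 0.33, adjusted p 0.0438) and with DESeq2 (0.58, adjusted p 0.0485, and 0.34, adjusted p 0.0454). FOS also passed without PI103 replicate 1 (0.80, adjusted p 0.024) and JUND without PI103 replicate 2 (0.43, adjusted p 0.0286). All 7 members were called when only the groups compared were fitted.

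Against oxozeaenol alone, PI103+oxozeaenol differed in 4 members, all higher, where 14.9% of all genes differed. They were FOS (0.99, SE 0.235, adjusted p 0.00634), JUNB (0.72, SE 0.182, adjusted p 0.00952), FOSL2 (0.49, SE 0.0983, adjusted p 0.00153) and JUN (0.45, SE 0.132, adjusted p 0.0226). Leaving out replicate 1 of the combination removed the calls of JUN (0.37, adjusted p 0.118) and JUNB (0.60, adjusted p 0.057). JUN also lost its call without oxozeaenol replicate 3 (0.41, adjusted p 0.0756) or 4 (0.34, adjusted p 0.0814).

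PI103+PD0325901 differed from PI103 in 4 members, against 38.7% of all genes. FOSL1 (-2.38, SE 0.263, adjusted p 2.07e-07), JUNB (-0.77, SE 0.178, adjusted p 0.00145) and FOS (-0.71, SE 0.237, adjusted p 0.0204) were lower, and FOSL2 was higher (0.26, SE 0.0981, adjusted p 0.0404). The FOS call was lost without PI103 replicate 1 (-0.49, adjusted p 0.117) or replicate 2 (-0.58, 0.086) or 3 (-0.59, 0.0677) of the combination. FOSL2 lost its call without PI103 replicate 1 (0.27, 0.0576), 2 (0.28, 0.0502), 3 (0.24, 0.0919) or 4 (0.23, 0.0948), or without replicate 1 (0.19, 0.14) or 2 (0.22, 0.126) of the combination, and without the low-count filter (0.26, 0.0528).

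Against PD0325901 alone the same combination differed in 3 members, all higher, where 18.1% of all genes differed. They were FOS (0.89, SE 0.249, adjusted p 0.0153), JUNB (0.52, SE 0.180, adjusted p 0.0453) and FOSL2 (0.30, SE 0.0981, adjusted p 0.0335), and 0 members were called when only these groups were fitted. FOSL1 was at 3.30 ± 1.32 CPM with both agents and 3.24 ± 0.867 CPM with PD0325901 (SD, n = 4), a difference of 0.04 (95% interval -0.52 to 0.60, adjusted p 0.934). FOS lost its call without replicate 1 (0.76, adjusted p 0.0644) or 4 (0.76, 0.0535) of the combination or PD0325901 replicate 2 (0.71, 0.0513) or 3 (0.87, 0.0514). FOSL2 lost it without replicate 1 (0.24, 0.127) or 2 (0.26, 0.0792) of the combination or PD0325901 replicate 2 (0.30, 0.0501), 3 (0.25, 0.132) or 4 (0.26, 0.0952). JUNB lost it without any 1 of the 4 PD0325901 replicates (0.56, 0.44, 0.61 and 0.44, adjusted p 0.0606, 0.12, 0.0511 and 0.125) or without replicate 1 (0.40, 0.168) or 3 (0.48, 0.103) of the combination, and without the low-count filter (0.52, 0.0828). FOSB, at 0.79 (adjusted p 0.117), was called without PD0325901 replicate 2 (1.16, adjusted p 0.0266).

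**Figure D4:**
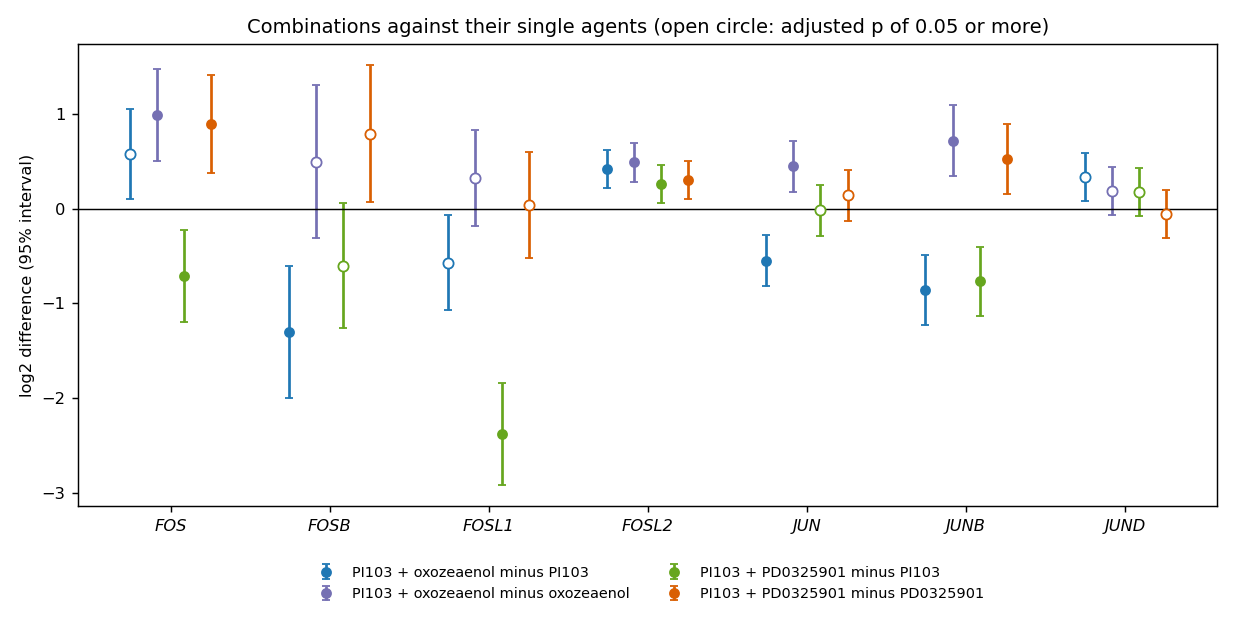
Log2 difference of each gene between a combination and 1 of its single agents, with 95% intervals (edgeR). Filled points passed an adjusted p of 0.05, and FOSL2 is filled and above 0 in all 4 comparisons while FOSL1 is filled in 1, at -2.38 for PI103+PD0325901 minus PI103.

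Because each agent was at 50% of its dose, the mean of the single-agent log2 changes was taken as a further reference. PI103+oxozeaenol differed from it in 2 members, against 3.98% of all genes: FOSL2 (0.45, SE 0.0836, adjusted p 0.00151) and FOS (0.78, SE 0.195, adjusted p 0.0219) were higher. The FOS call was lost without replicate 1 (0.74, adjusted p 0.097) or 4 (0.72, adjusted p 0.089) of the combination, and without the low-count filter (0.77, adjusted p 0.0527). PI103+PD0325901 also differed in 2 members, against 22% of all genes, FOSL1 lower (-1.17, SE 0.236, adjusted p 0.00129) and FOSL2 higher (0.28, SE 0.0841, adjusted p 0.0195). The FOSL2 call was lost without replicate 1 (0.22, adjusted p 0.0887) or 2 (0.24, adjusted p 0.0942) of the combination. JUN, JUNB and JUND were not called against either mean (adjusted p 0.209 to 0.889).

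Between the combinations, 3 members differed, against 29.9% of all genes. FOSL1 (-1.81, SE 0.261, adjusted p 2.22e-05) and FOS (-1.28, SE 0.236, adjusted p 0.000279) were lower with PD0325901 as the partner of PI103, and JUN (0.53, SE 0.131, adjusted p 0.0032) was higher. To order the levels, each combination was also set against the single agent it did not hold. PI103+oxozeaenol differed from PD0325901 in 4 members, against 36.8% of all genes, among them FOS (2.18) and FOSL1 (1.85), both higher. PI103+PD0325901 differed from oxozeaenol in 5 members, against 43.9% of all genes, among them FOSL1 (-1.48), lower, and JUN (0.98), higher. FOSL2 was also higher there (0.32, adjusted p 0.0102), a call lost without replicate 1 of the combination (0.25, 0.0521).

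Other bZIP proteins that can pair with FOS or JUN proteins were read from a list of 13, of which 9 were tested and 6 fell in each treatment, with 0 higher. The same 6 passed each time, ATF3, MAFF, JDP2, BATF, MAFG and MAFK, and ATF2, ATF7 and MAFA did not pass in any. Of all genes tested, 25.2% were lower with PI103, 29.9% with PD0325901 and 26.1% with oxozeaenol. With PI103+oxozeaenol 27.9% were lower, and with PI103+PD0325901 32.6%. ATF3, a stress-induced repressor and partner of JUN, fell from 400 ± 128 CPM (SD, n = 4) to between 61.8 ± 7.68 and 79.9 ± 11 CPM, log2 changes of -2.69 to -2.32. MAFF, a small Maf protein without an activation domain, held 43.9 ± 9.0 CPM in control, 19.0 ± 1.64 with PI103 and 2.26 ± 0.520 with PD0325901. JDP2, a repressor that binds JUN, was lowest with PI103, at 0.145 ± 0.0505 against 1.96 ± 0.410 CPM in control. The median log2 change of the 9 genes was -0.46, -0.72, -0.39, -0.44 and -0.62 with PI103, PD0325901, oxozeaenol, PI103+oxozeaenol and PI103+PD0325901, beside 0.02, -0.02, 0.02, 0.02 and 0.01 over all genes tested.

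Of 25 genes known as AP-1 targets, 16 were tested, and they moved both ways. With treatments in that order, 6, 9, 10, 9 and 10 were lower and 5, 3, 1, 3 and 3 higher, and the medians were -0.13, -1.03, -0.60, -0.34 and -0.71. Of all genes tested, 51.4%, 58.6%, 51.9%, 55.6% and 64.8% were called in either direction in the same treatments. HBEGF, a ligand of the EGF receptor, fell from 84.4 ± 16.5 CPM to between 9.92 ± 1.00 with PI103 and 16.0 ± 1.80 with PD0325901. VEGFA, the vascular growth factor, fell by 3.09 with PI103 (236 ± 28.2 to 27.8 ± 2.18 CPM) and had log2 changes of -2.27 to -1.45 in the others. With PD0325901 ITGA2, a collagen receptor subunit, fell by 3.41 (SE 0.202, adjusted p 1.91e-12), and with PI103 it fell by 0.76 (SE 0.184, adjusted p 0.00128). IL8, the neutrophil chemokine, fell by 6.47 (SE 0.451, adjusted p 3.12e-11) with oxozeaenol, from 10.2 ± 4.91 to 0.117 ± 0.0771 CPM. At so low a treated level the size of this fall is imprecise.

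CCND1, which encodes the G1 cyclin D1, fell by 1.57 with PD0325901, by 0.97 with oxozeaenol and by 1.17 with PI103+PD0325901. It was not called with PI103 (0.26, adjusted p 0.17) or PI103+oxozeaenol (-0.33, adjusted p 0.0764). MMP1, interstitial collagenase, was lower in all 5 treatments but was scarce, at 0.702 ± 0.230 CPM in control, 0.203 ± 0.0851 with PI103 and 0.0254 to 0.0418 on average elsewhere, so no size is given. PLAUR, the urokinase receptor, rose by 0.90 with PI103, 1.27 with PD0325901, 0.79 with PI103+oxozeaenol and 1.66 with PI103+PD0325901, and was not called with oxozeaenol (0.20, adjusted p 0.268). PLAU, which encodes urokinase, was not tested, with no library above 2 counts.

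Kinases that act on AP-1 were called in both directions. Of 16 listed, 15 were tested, and 5, 5, 5, 6 and 4 were higher and 2, 2, 3, 4 and 3 lower, with medians of 0.02, 0.08, 0.01, 0.15 and 0.13. The number called in either direction, 7, 7, 8, 10 and 7 of 15, was near the 51.4% to 64.8% of all genes, so the counts are no result about these kinases as a list. MAPK3, which encodes ERK1, rose in all treatments, by 0.95 to 1.16 on the log2 scale, from 40.4 ± 2.10 CPM to between 78.0 ± 4.60 and 90.6 ± 12.3 CPM. With PI103 MAP3K1, an activator of JNK signalling, rose by 1.01 (SE 0.104, adjusted p 1.17e-08), and it rose by 0.34 to 0.66 in the others. MAPK9, which encodes JNK2, fell by 0.43 with PI103, 0.38 with PD0325901, 0.28 with PI103+oxozeaenol and 0.58 with PI103+PD0325901. MAPK14, or p38 alpha, rose by 0.30 with PD0325901, 0.34 with oxozeaenol and 0.23 with PI103+oxozeaenol.

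The factors that act on immediate-early promoters numbered 8, all tested. Of these, 2, 4, 3, 3 and 3 were lower and 2, 0, 0, 0 and 1 higher, with medians of 0.16, -0.38, -0.31, -0.05 and -0.20. In either direction 3 or 4 of 8 were called in each treatment, no larger a share than the 51.4% to 64.8% of all genes. SRF itself fell in all treatments, by 0.49 (SE 0.121, adjusted p 0.00137) with PI103 up to 0.92 (SE 0.122, adjusted p 3.24e-07) with PI103+PD0325901. Its partner ELK1 was not called in any (adjusted p 0.071 to 0.616). ATF1, a CREB relative, fell in all 5, by 0.50 to 1.00. MKL1, an actin-regulated coactivator of SRF, fell by 1.11 with oxozeaenol and was not called with PI103 (0.24, adjusted p 0.0701), while ELK3 rose by 0.78 with PI103.

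Other immediate-early genes were mostly lower, as FOS and JUNB were. Of 18 listed, 17 were tested, of which 12, 14, 14, 13 and 13 were lower and 3, 1, 1, 1 and 1 higher, and the medians were -1.03, -1.43, -1.70, -1.23 and -1.23. Of all genes tested, 25.2%, 29.9%, 26.1%, 27.9% and 32.6% were lower in the same treatments, and 26.2%, 28.7%, 25.7%, 27.7% and 32.2% higher. The medians over all genes were 0.02, -0.02, 0.02, 0.02 and 0.01. EGR1, a zinc finger factor induced by ERK and SRF, held 201 ± 50.4 CPM in control, 13.4 ± 6.33 with PI103 and 1.64 ± 0.722 with PD0325901. IER3 fell by 4.48 (SE 0.234, adjusted p 2.68e-13) with PD0325901 alone and fell by 2.93 (SE 0.216, adjusted p 1.24e-10) with PI103 alone. It fell by 4.06, 3.92 and 4.31 with oxozeaenol, PI103+oxozeaenol and PI103+PD0325901. The Krüppel-like factors KLF4 and KLF10 fell in all treatments, by 1.34 to 2.64 and by 1.49 to 2.19.

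Genes that degrade or hold back AP-1 proteins formed the last list, of 10, all tested. There 4, 5, 6, 5 and 5 were lower and 3, 1, 0, 0 and 2 higher, with medians of -0.09, -0.26, -0.49, -0.23 and -0.20. The number called in either direction, 5 to 7 of 10, was near the share of all genes. ITCH, a ubiquitin ligase of JUN and JUNB, fell by 0.49 to 0.78 from 226 ± 19.0 CPM. FBXW7, the ligase subunit for phosphorylated JUN, fell by 0.35 to 0.57 from 32.2 ± 2.76 CPM. TSC22D3, a glucocorticoid-induced binder of AP-1, was lower in all 5 treatments from a low level of 0.737 ± 0.288 CPM.

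**Figure D5:**
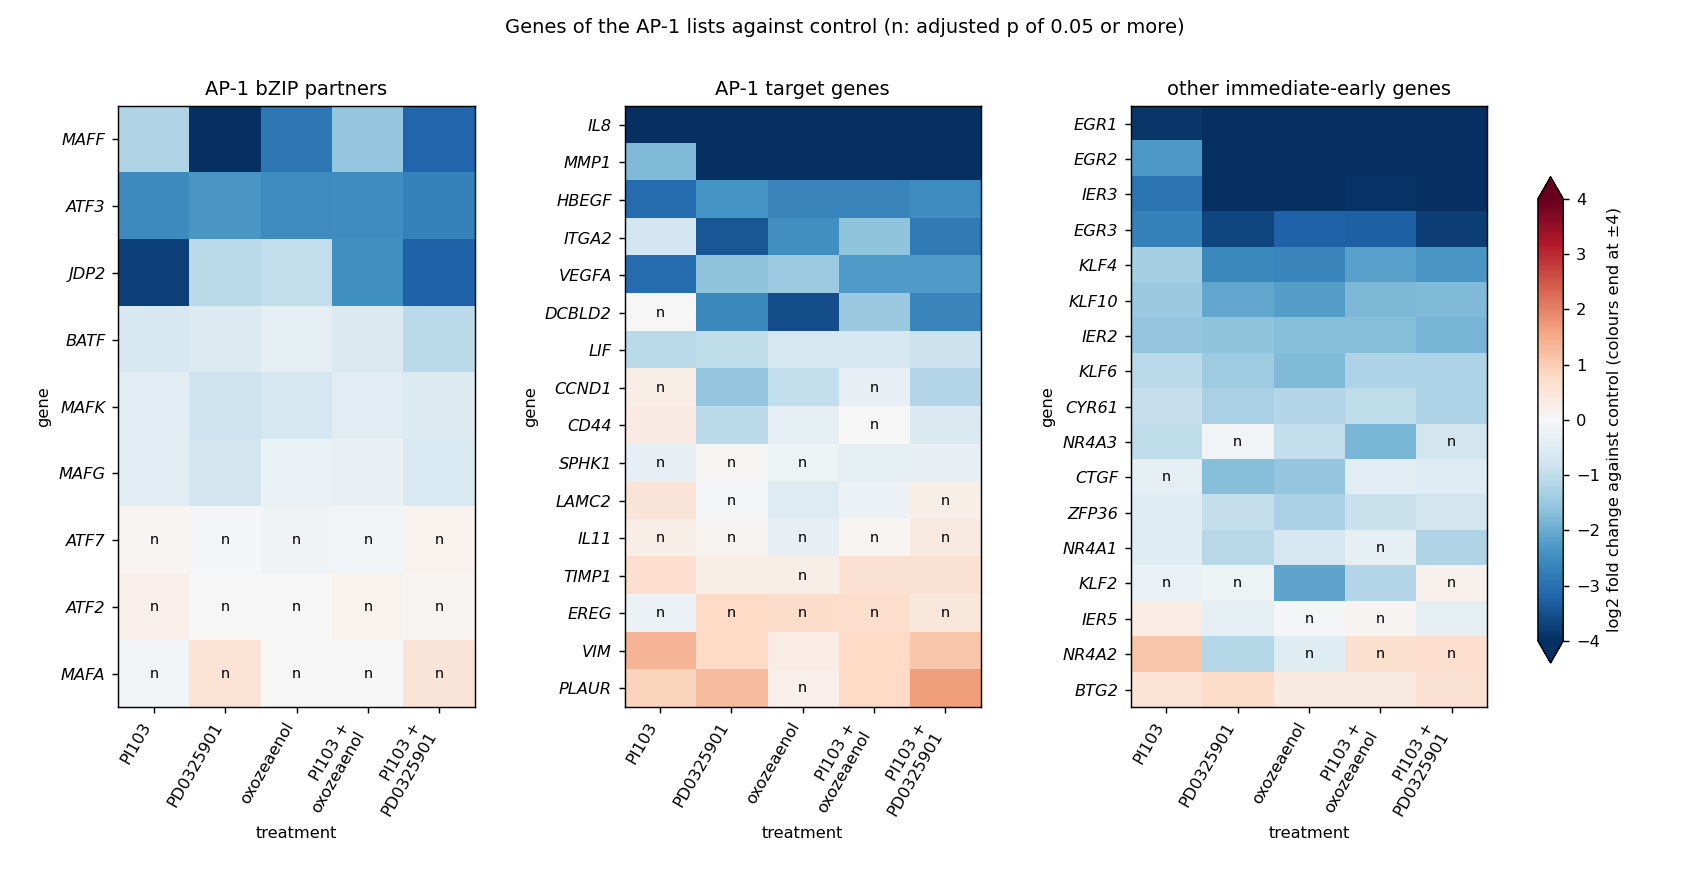
Log2 fold change against control (colour, ending at 4 either way) of the tested bZIP partners, AP-1 targets and other immediate-early genes in 5 treatments, with n where the adjusted p was 0.05 or more. ATF3, HBEGF, IL8 and EGR1 are blue in all 5 columns, and PLAUR is red in all but has an n with oxozeaenol.

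Members that varied together over the 24 libraries are described by Pearson's r of log2 CPM, which reflects the treatments and the depth the libraries share. FOSB and JUNB had r = 0.929, FOS and FOSL1 0.905, FOSB and JUN 0.801, and JUN and JUNB 0.797. The values of FOSB rest on only 3 to 53 counts in each treated library, so their precision is low. FOS and JUN had r = 0.315, and JUND had at most 0.438 with any member. Among 10040 genes with a mean of at least 5 CPM, the genes most like FOS were MYC (0.951), SIM2 (0.941) and MAFF (0.935). MYC, the growth regulator, fell in the 5 treatments by 1.03, 1.71, 1.29, 0.91 and 1.39, with the same highest and lowest treated group as FOS.

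Most like FOSL1 were MORC4 (0.974), ANKRD1 (0.974) and SLC2A1 (0.972), the glucose transporter GLUT1, which fell by 1.86 with PD0325901 and by 0.59 with PI103. RHOB, a small GTPase, was most like JUN (0.977) and fell by 1.67 with oxozeaenol and by 0.50 with PD0325901, ahead of DLGAP4 (0.939) and PXDC1 (0.934). GPR1 (0.967), GADD45B (0.965) and ETS1 (0.961) were most like JUNB, and ETS1, a transcription factor activated by ERK, fell by 2.44 with oxozeaenol and by 0.50 with PI103. FOSL2 was most like AMOTL2 (0.922), KIAA0753 (0.907) and GAB2 (0.875). For JUND the values of RIC8A (0.814) and PRR24 (0.793) were lower than those of the genes named for the other members, and neither gene was called in any treatment. FOSB, under 1 CPM on average, was left out of this ranking.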

How the data were processed

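The authors deposited whole-number read counts per gene symbol for 24 libraries, made per the labels' protocols with the Illumina Stranded mRNA Prep kit from 0.8 µg of total RNA. The build was GRCh38 per the submitters' processing notes, and the aligner, counter, strand setting and annotation are not given in the sources used here. The 5 tallies of unassigned reads were left out (no feature 4.24% to 8.57%, ambiguous 1.57% to 2.01%, not unique 4.64% to 6.06% of reads). Of 23368 genes, 3199 were at 0 throughout, and filterByExpr kept 13947 with 99.989% of counts.

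Counts were TMM-scaled and modelled in R 4.3.3 by edgeR 4.0.16 (robust estimateDisp and glmQLFit), a coefficient for each group, all libraries together, with a common biological coefficient of variation of 0.131. The 17 contrasts (all pairs of groups, and each combination against the mean of its agents) went through edgeR's two-sided quasi-likelihood test, adjusted by Benjamini-Hochberg over genes and called at an adjusted p under 0.05. SE is the absolute log2 fold change over the square root of F, and 95% intervals use edgeR's total degrees of freedom. The script was tested on simulated data. Log2 CPM for likeness used a prior count of 2. Exon and coding lengths and overlaps come from GENCODE release 29, promoters from RefSeq.

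The text names the 7 members, the 3 genes most like each member of at least 1 CPM, the 2 genes of smallest adjusted p per list and treatment, and 8 genes whatever their values. One gene that this rule names is not reported here. Members and the 6 lists were chosen with earlier results of these data known. The lists are described by counts and medians, with no set test. Other columns of per-sample values numbered 0.

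Same-numbered libraries share a batch per the labels. Deviations from group means correlated at 0.120 on average over 60 same-batch pairs (28 over 0.1) and at -0.04 over 180 others. Replicate libraries of a group differed beyond counting noise. Alternatives were RLE and upper-quartile scaling, no low-count filter, a batch block, a minimum change of 1 (glmTreat), only the groups compared, DESeq2 1.42.0, and leaving out each library.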

Additional observations from a re-analysis of the deposited data

How the results depend on the processing

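Against control, all 35 values of the 7 genes kept their call with RLE scaling, DESeq2, no low-count filter, the batch (replicate) block and only the groups compared. Direction was compared only for values called in either fit, so not for JUND under these settings. No direction of a called value reversed under any alternative. With the block the members called against control stayed at 6 of 7 in each treatment, and beside the 3 calls given with the results it changed no other call of a member. Upper-quartile scaling shifted the median log2 change of all genes by 0.14 for PI103+PD0325901 (from 49.6% to 61% of calls higher), and by under 0.1 elsewhere. It ended the calls of JUN with PI103 (-0.27) and with PI103+PD0325901 (-0.21) and of FOSL2 with PI103+oxozeaenol (-0.19).

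A required minimum log2 change of 1 (glmTreat), which asks for larger changes by construction, left 469 genes for PI103, 1098 for PD0325901, 640 for oxozeaenol, 738 for PI103+oxozeaenol and 1541 for PI103+PD0325901, and 13, 19, 19, 16 and 18 genes of the lists. It left 3 members with PI103 and 3 with PI103+oxozeaenol. The calls it ended were FOSL2 in all 5 treatments (-0.69, -0.73, -0.75, -0.27 and -0.43), JUN in all but oxozeaenol (-0.34, -0.50, -0.89 and -0.36), JUNB with PI103 (-0.81) and FOS with PI103+oxozeaenol (-1.26). Among other comparisons it left 1 member for PD0325901, oxozeaenol or PI103+PD0325901 against PI103, 2 for PI103+oxozeaenol against PD0325901, and 0 in the others. By list it left 2, 2, 2, 3 and 3 bZIP partners, 4, 7, 6, 5 and 7 targets, 6, 10, 10, 7 and 7 other immediate-early genes, and at most 1 turnover gene and 0 kinases or serum response factors. Of the latter, 7 in place of 4 were called with PI103 under upper-quartile scaling and 5 in place of 3 with oxozeaenol without the low-count filter or without control replicate 4. Only the groups compared gave 7 members for PI103+oxozeaenol against PI103 and 0 for PI103+PD0325901 against PD0325901. Without the low-count filter 1 member differed between PI103+oxozeaenol and the mean of its agents.

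Leaving out 1 library at a time, JUN with PI103 ran from -0.43 to -0.23, JUN with PI103+PD0325901 from -0.45 to -0.24, FOSL2 with PI103+oxozeaenol from -0.31 to -0.19 and JUND with PI103 from -0.34 to -0.10. Members called ran from 0 to 2 (PI103+PD0325901 against PD0325901), 2 to 4 (against PI103) and 2 to 4 (PI103+oxozeaenol against oxozeaenol), and from 1 to 2 against both means. The coding length of GENCODE was chosen after seeing the data, and a coding length from RefSeq proteins was not used here. Depth limits FOSB, at 3 to 19 counts a library with oxozeaenol, MMP1, and IL8 with oxozeaenol, at 0.117 CPM on average.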
